A study of Drosophila melanogaster with 9 samples.

Results

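The Dpp pathway is the Drosophila form of BMP signalling, and the genes described here encode its ligands, receptors, Smad mediators and nuclear regulators. The members were the annotated probe sets of 10 listed genes: dpp, gbb, tkv, put, sax, Mad, Med, shn, Dad and brk. Of these, 9 genes were measured by 10 probe sets, out of 10844 genes and 14010 probe sets in all. tkv had 2 sets and the other measured genes 1 each. No probe set was annotated to brk, the gene for the transcriptional repressor that Dpp signalling switches off, so brk is not analysed here. The rule goes by gene name and role and uses no measured value, but these members and the gene lists below were chosen with earlier results of these data known.

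Total RNA of whole Drosophila melanogaster embryos was hybridised to 9 Affymetrix 1-colour arrays, and each of the 3 groups was represented by 3 independently prepared RNA samples. The WT genotype was w. GOF embryos also carried w, with 1 copy each of UAS-hepACT and of the driver 69B-GAL4, so that an activated form of the kinase Hep, which switches on JNK, was made in the ectoderm. LOF embryos carried y and w and combined the alleles heprev75 and hep1, so they differ from WT in y as well as in hep, and all 9 samples shared w. Embryos of all groups were described as at stages 13 to 14, when the epidermis closes over the dorsal side. The collections had been chosen by in situ hybridisation for dpp itself.

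Dpp and Gbb are secreted BMP ligands. They bring together the type II receptor Punt (put) and a type I receptor, Thickveins (tkv) or Saxophone (sax), which then phosphorylates the Smad protein Mad. Phosphorylated Mad joins the co-Smad Medea (Med), enters the nucleus and, with Schnurri (shn), represses brk, while Dad, an inhibitory Smad induced by the pathway, dampens it. During dorsal closure the leading edge cells of the epidermis express dpp under control of JNK, and Dpp then signals within the epidermis and to the amnioserosa, the extraembryonic sheet that fills the dorsal opening.

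Values below are the deposited linear intensities, which have no fixed unit and may be set against each other only within a probe set. A change is the mean of log2(intensity + 1) in 1 group minus that in another, given with its standard error (SE) and tested with limma over all genes, and a gene is called changed at a Benjamini-Hochberg adjusted p under 0.05. The authors' values were returned from a log scale with a base that is not stated. Fold changes are therefore given for base 2, and for base e where every log2 change would shrink by the factor 0.693. If the base was e, the log2 changes and base 2 folds printed below are too large in size. The deposited intensities reached 1331513, and 239 probe sets exceeded, on at least 1 array, the largest number that 16 bits can hold. These values bear on the base, but which base was used was not tested.

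In GOF embryos the pathway genes moved in both directions. Of the 9 measured members, 4 rose (dpp, put, Mad and Dad), 3 fell (gbb, Med and shn) and 2 did not pass the test (sax and the brighter set of tkv). Over all genes, 36.7% were called in this comparison, 16.6% up and 20.1% down. The median log2 change was 0.21 over the members and -0.035 over all genes. For 5 of the 9 members the GOF and WT arrays did not overlap, against 44.5% of all genes. In LOF embryos 0 of 9 members passed, against 4.72% of all genes, and 0 of the 9 had an unadjusted limma p under 0.05. LOF and WT arrays did not overlap for 1 of the 9, put, against 25.6% of all genes. The adjusted p of the 9 members in LOF was at least 0.407.

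**Figure D1:**
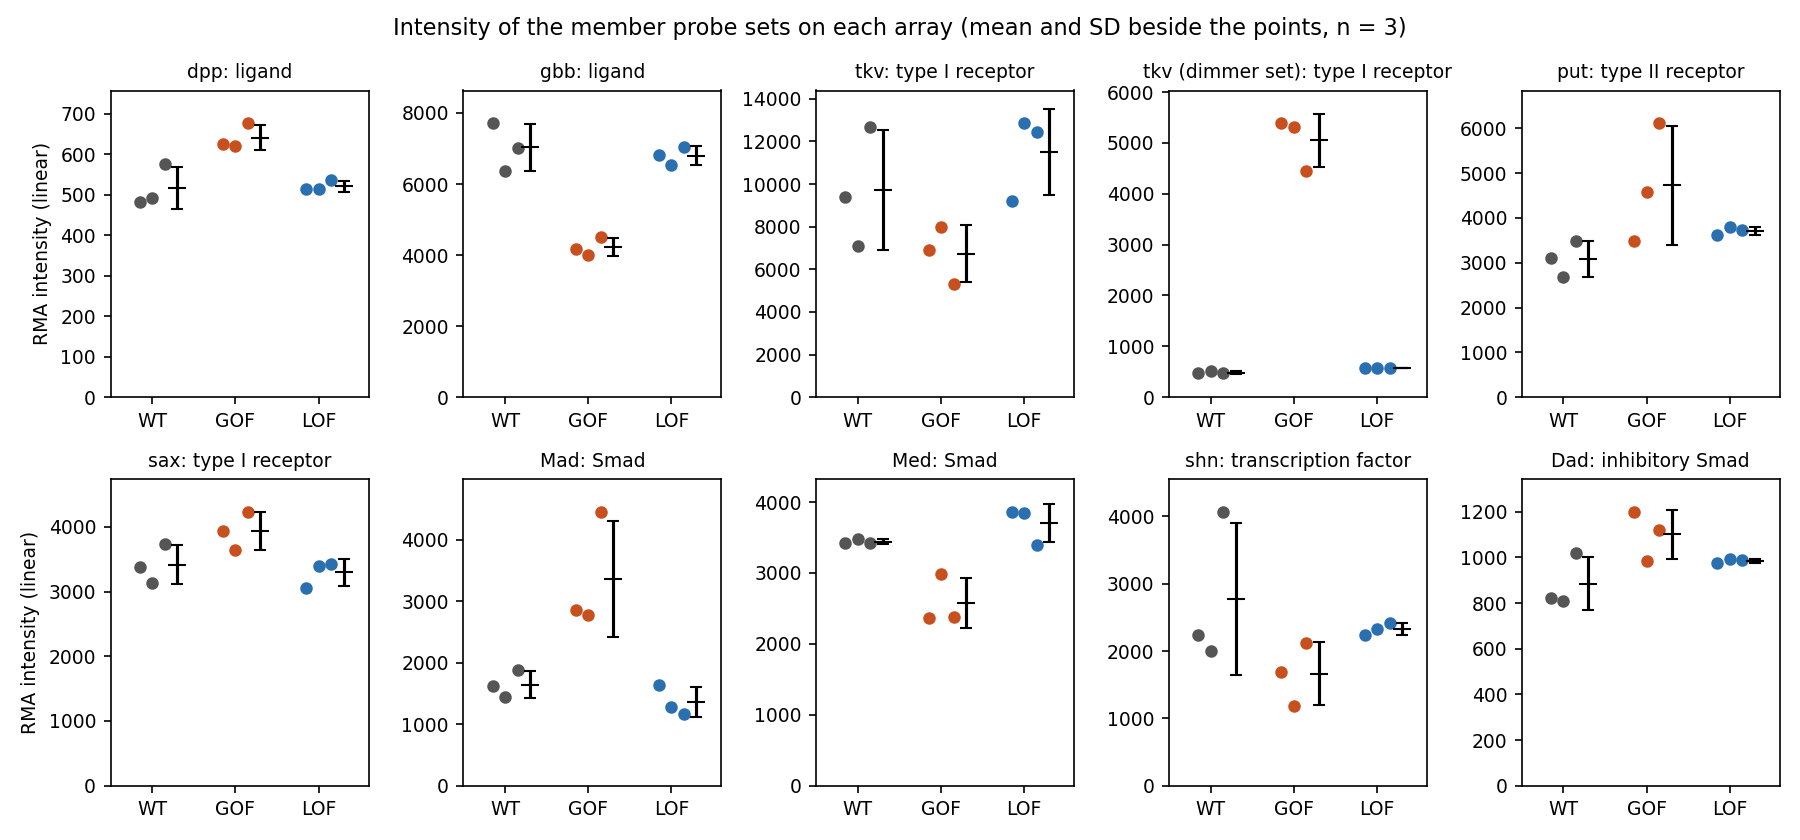
Each panel plots the linear intensity of 1 member probe set (vertical axis from 0) on the 3 WT, 3 GOF and 3 LOF arrays, with the group mean and SD beside the points. The dimmer tkv set stands near 500 on WT and LOF arrays and between 4452 and 5385 on GOF arrays, while gbb and Med are lower on all 3 GOF arrays and Mad is higher.

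Of the ligands, dpp rose and gbb fell. dpp, whose product is the main BMP ligand of the leading edge, read 483, 491 and 575 on the WT arrays, 626, 619 and 676 on the GOF arrays and 514, 513 and 537 on the LOF arrays. All 3 GOF arrays were above all others, and the WT and LOF arrays overlapped. The change in GOF was 0.31 on the log2 scale (SE 0.093, limma adjusted p = 0.0191), which is 1.24-fold, or 1.16-fold with base e. This call ended without WT replicate 1 (limma adjusted p = 0.0715), without WT replicate 2 (0.0587) or without GOF replicate 3 (0.0629). In LOF the log2 change was 0.02, with a 95% interval from -0.19 to 0.22 (limma adjusted p = 0.938). GOF and LOF differed by 0.30 (SE 0.093, adjusted p = 0.0258). These values are of whole embryos, so dpp RNA of the leading edge was not measured apart from that of other cells. The collections had also been chosen by in situ hybridisation for dpp.

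gbb, the gene for the broadly expressed BMP ligand Glass bottom boat, read 7708, 6362 and 7019 in WT, 4178, 4006 and 4512 in GOF and 6823, 6531 and 7047 in LOF. Every GOF array lay below every WT and LOF array. The GOF change was -0.73 (SE 0.096, limma adjusted p = 9.48e-05), or 1.66-fold lower (base e: 1.42-fold). The LOF change was -0.04, with a 95% interval from -0.25 to 0.17 (limma adjusted p = 0.839). In contrast to dpp, the gbb call was kept under all 17 alternative settings, with changes from -0.80 to -0.61 on the log2 scale.

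The genes whose pattern over the 9 arrays was most like that of dpp were found among the 4137 genes called in GOF or LOF against WT, by the root-mean-square difference of log2 values taken relative to each gene's own WT mean. They were Sdr, which encodes a secreted decoy of the insulin receptor (difference 0.0732), CG2260 (0.0758), the farnesyltransferase subunit gene Fnta (0.0765), the phosphatidylinositol synthase gene Pis (0.0787) and CG4565 (0.082). Through this choice their log2 changes had to lie near those of dpp, and they ran from 0.28 to 0.35 in GOF and from 0.02 to 0.07 in LOF. puc, the JNK phosphatase gene that JNK induces, was 1739, 1813 and 1704 in LOF, 2550, 2016 and 2347 in WT and 6435, 5278 and 6712 in GOF. Its log2 change in GOF was 1.41 (SE 0.12, adjusted p = 2.5e-06), and its LOF arrays lay below the WT arrays without passing the test (log2 change -0.39, adjusted p = 0.0832). Of 6 genes listed as JNK context, 3 rose in GOF (puc, Jra and scaf) and 1 fell (bsk, log2 change -0.90, limma adjusted p = 0.000633). Among all genes, 16.6% were called up and 20.1% down in GOF. hep and kay did not pass in GOF (-0.04 and -0.08), and neither did their dimmer sets. In LOF 0 of the 6 passed, where 4.72% of all genes were called.

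Among the receptor genes, the widest movement was seen on a single probe set of tkv. tkv encodes the type I receptor to which Dpp binds, and its gene is known to give rise to several transcripts. Its dimmer probe set (154370_at) read 472, 510 and 473 in WT, 5385, 5318 and 4452 in GOF, and 574, 581 and 577 in LOF. All GOF arrays were far above the others, and the LOF arrays were all above the WT arrays. In the fit over all probe sets, where 33.1% were called in GOF (14.8% up), the change in GOF was 3.37 on the log2 scale (SE 0.094, limma adjusted p = 3.87e-09), 10.4-fold, or 5.06-fold with base e. It was kept under all 16 alternatives run on probe sets, between 3.32 and 3.46. In LOF its change was 0.25 (95% interval 0.04 to 0.46), which did not pass (limma adjusted p = 0.186, with 3.59% of probe sets called).

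The brighter tkv set (143377_at), which stands for the gene in the counts above, did not rise. It read 9404, 7073 and 12677 in WT, 6895, 7965 and 5320 in GOF, and 9193, 12847 and 12443 in LOF. GOF and WT overlapped, with a log2 change of -0.51 (95% interval -0.97 to -0.05, limma adjusted p = 0.0847). It was lower in GOF than in LOF on all arrays, by 0.78 on average (log2 change -0.78, SE 0.21, adjusted p = 0.0123).

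Whether the 2 sets of tkv moved apart was tested as a log2 difference within each array, dimmer minus brighter, in a limma fit over the 1209 genes with more than 1 set. This test was chosen after the values had been seen. From WT to GOF the difference rose by 3.88 (SE 0.23, limma adjusted p = 1.19e-06), the largest rise of a second set relative to the brightest among the 1209 genes, of which 157 (13.0%) passed. From WT to LOF it changed by -0.02 (SE 0.23, adjusted p = 0.993), and 4 genes (0.331%) passed. When the sets were averaged into 1 value for tkv, the gene rose by 1.43 in GOF (limma adjusted p = 6.42e-06), so the direction given for tkv depends on the probe set. The sources used here do not give the place of either set's probes in the tkv transcripts.

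**Figure D2:**
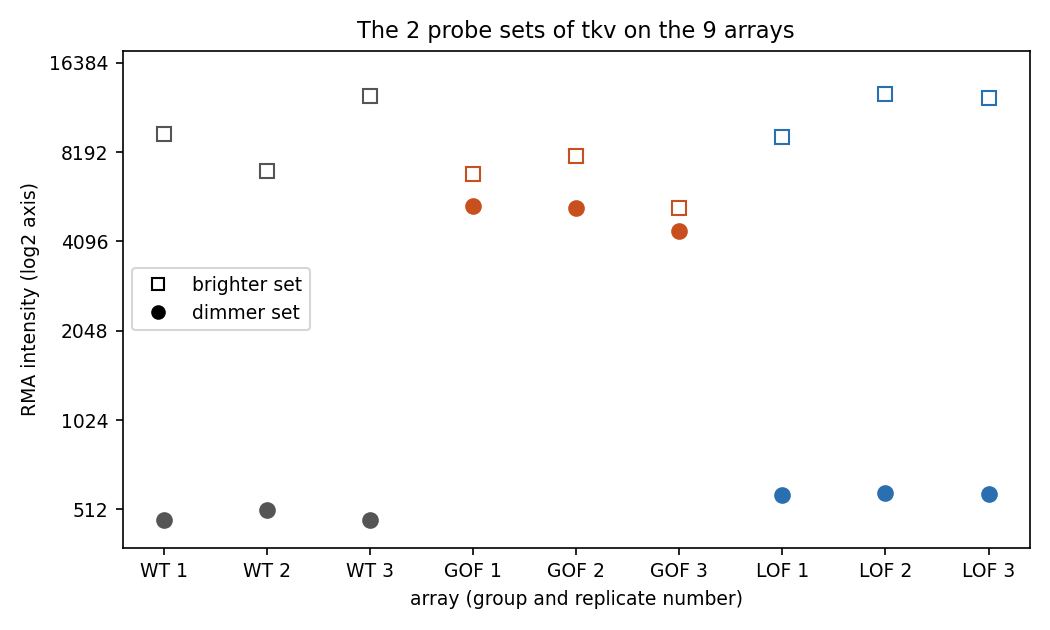
Intensity of the brighter (open squares) and the dimmer (filled circles) probe set of tkv on each of the 9 arrays, on a log2 axis, coloured by group. The dimmer set reads 472 to 581 on WT and LOF arrays and at least 4452 on GOF arrays, whereas the brighter set overlaps between GOF and WT; heights of different sets are not comparable.

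put, the gene for the type II receptor that Dpp signalling requires, read 3107, 2675 and 3480 in WT, 3484, 4581 and 6110 in GOF, and 3610, 3789 and 3731 in LOF. The lowest GOF array exceeded the highest WT array by only 4 intensity units. The log2 change of put in GOF was 0.58 (SE 0.17, limma adjusted p = 0.018), 1.5-fold, or 1.32-fold with base e. It ended without WT replicate 2 (limma adjusted p = 0.0734) or GOF replicate 3 (0.0519). All 3 LOF arrays of put were also above WT, at a log2 change of 0.27 (95% interval -0.10 to 0.65, adjusted p = 0.407), and GOF and LOF overlapped (0.31, adjusted p = 0.187).

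sax, the gene for the other type I receptor, through which Gbb signals, read 3377, 3132 and 3730 in WT, 3935, 3646 and 4231 in GOF, and 3061, 3397 and 3424 in LOF. Its GOF arrays overlapped with WT and stood above LOF. Neither difference passed the test (log2 change 0.21 against WT, 95% interval -0.01 to 0.42, adjusted p = 0.134, and 0.26 against LOF, adjusted p = 0.0632). After cyclic loess normalization both passed the threshold (adjusted p = 0.0224 and 0.0111).

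The Smad genes Mad and Med, whose products act as partners, moved in opposite directions. Mad, which encodes the receptor-activated Smad, read 1616, 1434 and 1877 in WT, 2862, 2771 and 4453 in GOF, and 1633, 1279 and 1162 in LOF. GOF stood clear above both other groups, with the third GOF array far above the others of its group. The change in GOF was 1.01 (SE 0.19, limma adjusted p = 0.00112), 2.01-fold, or 1.62-fold with base e. Against LOF it was 1.29 (SE 0.19, adjusted p = 0.000183), 2.44-fold or 1.86-fold. LOF and WT overlapped, although the lowest 2 of the 9 values were LOF arrays (log2 change -0.28, 95% interval -0.69 to 0.13, adjusted p = 0.437). The order of the group means was thus GOF, WT, LOF, with the last 2 not separated.

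Med, the gene for the co-Smad that Mad joins, read 3421, 3480 and 3428 in WT, 2359, 2981 and 2375 in GOF, and 3862, 3850 and 3392 in LOF. All GOF arrays were below the other 6. The change in GOF was -0.43 (SE 0.11, limma adjusted p = 0.00721), or 1.35-fold lower (base e: 1.23-fold), and against LOF it was -0.53 (SE 0.11, adjusted p = 0.00187). LOF differed from WT by 0.10 (95% interval -0.13 to 0.34, adjusted p = 0.645). The calls of Mad and Med in GOF were kept under all 17 alternatives, with log2 changes between 0.79 and 1.13 for Mad and between -0.54 and -0.32 for Med.

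Dad, the inhibitory Smad gene that serves as a readout of pathway activity in many fly tissues, read 824, 811 and 1018 in WT, 1200, 986 and 1119 in GOF, and 976, 993 and 989 in LOF. The second GOF array lay below the third WT array, and the 3 LOF arrays lay within the WT range. Dad passed in GOF with a log2 change of 0.32 (SE 0.11, limma adjusted p = 0.0385), 1.25-fold, or 1.17-fold with base e. The call was lost in 8 of 17 alternatives, 7 of which left out single arrays, with an adjusted p up to 0.132. GOF and LOF differed by 0.16 (95% interval -0.08 to 0.40, adjusted p = 0.309).

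shn, which encodes the zinc finger protein that works with Mad and Med on brk, read 2237, 2001 and 4067 in WT, 1682, 1188 and 2123 in GOF, and 2231, 2330 and 2414 in LOF. The third WT array stood far above the rest, and the third GOF array lay above the second WT array. shn passed narrowly in GOF (log2 change -0.70, SE 0.25, limma adjusted p = 0.0458), or 1.62-fold lower (base e: 1.4-fold). Without WT replicate 3 the change shrank to -0.39 (limma adjusted p = 0.172), and without GOF replicate 2 it was -0.48 (adjusted p = 0.19). The call of shn was lost in 10 of 17 alternatives. In LOF the log2 change was -0.18 (95% interval -0.73 to 0.37, adjusted p = 0.738).

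**Figure D3:**
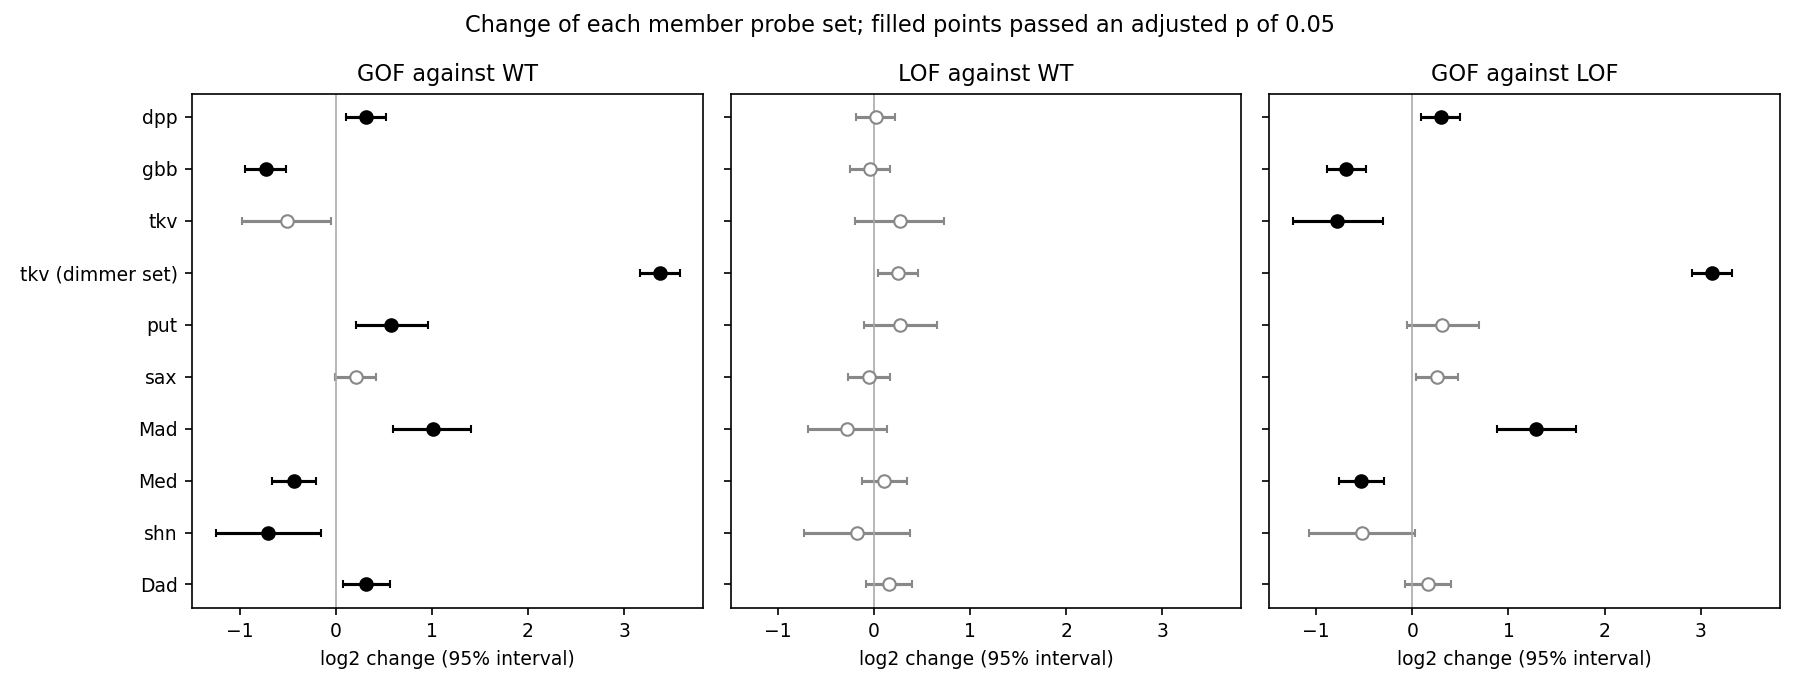
Log2 change of each member probe set (points) with its 95% interval (bars) in the 3 comparisons, filled where the adjusted p was under 0.05. In GOF the changes run from -0.73 for gbb to 3.37 for the dimmer tkv set, while in LOF against WT 0 of 10 sets passed and the changes lie between -0.28 and 0.27.

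Set against LOF in place of WT, GOF embryos had 2 members higher (dpp and Mad) and 3 lower (gbb, Med and the brighter set of tkv), where 37.1% of all genes were called, 17.7% up and 19.4% down. This comparison uses the same GOF arrays as the one against WT. GOF and LOF arrays did not overlap for 7 of the 9 members, against 49.5% of all genes. The dimmer tkv set was 3.12 higher on the log2 scale (SE 0.094, limma adjusted p = 8.22e-09 over probe sets, 34.7% of which were called).

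Within the WT group the members were not spread evenly over the arrays. WT replicate 3 was the highest WT array for 7 of the 10 member sets, against 28.5% of all probe sets, and WT replicate 2 was the lowest for 7 of 10, against 35.3%. Among GOF arrays, replicate 3 was the highest for 6 of 10 sets, against 32.9%. Leaving out WT replicate 1, WT replicate 2 or GOF replicate 3 reduced the number of members up in GOF from 4 to 2, 1 and 1. Of all pairs of member sets, dpp and sax had the smallest difference in log2 pattern over the 9 arrays (root-mean-square difference 0.0912), followed by dpp and Dad (0.112). This measure is not scaled by the size of the changes, so sets that change little, as these do, lie close together. Among the 3 members called down in GOF, gbb and Med differed by 0.251, gbb and shn by 0.314 and Med and shn by 0.453.

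Several lists of stage and tissue markers also differed between GOF and WT, where 16.6% of all genes were called up and 20.1% down. Of 16 measured genes whose RNA is laid down in the egg or made in the germ line, 10 rose and 1, gcl, fell in GOF (-0.91 on the log2 scale). Their summed intensity was 45397 to 48367 on WT arrays, 196275 to 275110 on GOF arrays and 46836 to 53006 on LOF arrays. The cyclin gene CycB alone makes up most of this sum in every group (mean 33631 in WT, 199413 in GOF and 34664 in LOF). bcd, the anterior determinant, and twe, a meiotic Cdc25 phosphatase gene, were among those that rose (mean 151 to 6934 and 197 to 5036), while vas and pgc of the germ cells did not pass (118 to 107 and 125 to 137). In LOF, 4 of the 16 rose and 0 fell, where 147 of all 10844 genes were called up and 365 down. Of 6 genes listed for the blastoderm, slam and dah rose in GOF (log2 changes 2.01 and 4.36). The other 4 did not pass (nullo, bnk, Sry-alpha and halo, from -0.16 to 0.05), and the median was 0.04. In LOF, dah alone of these 6 passed (0.93). RNA of tkv, put, sax, Mad and Med is also known to be supplied to the egg by the mother. Of these genes, put, Mad and the dimmer set of tkv rose in GOF, Med fell, and sax and the brighter set of tkv did not pass.

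In the opposite direction, 6 of 8 late epidermis and cuticle genes and 4 of 5 epidermal genes fell in GOF, and 0 rose. Among all genes, 20.1% were called down in GOF, and 4.72% were called in LOF. The summed intensity of the cuticle list was 209813 to 292936 in WT and 81562 to 96206 in GOF, and that of the epidermal list 27512 to 30387 and 13047 to 14984. Amnioserosa genes fell in 7 of 10 cases in GOF (sums of 69992 to 74095 in WT and 39408 to 42811 in GOF). In LOF the sum was 47607 to 55320, but 1 of the 10 passed, Ance, which makes up most of the sum in WT (mean 39337 in WT and 21580 in LOF). The median log2 change of the list in LOF was -0.15. Neuronal genes fell in 3 of 5 cases in GOF. Of 3 muscle genes, Mlc2 and up fell in GOF, but not on all of its arrays: the summed intensity was 12735, 15650 and 36073 on GOF replicates 1, 2 and 3, against 32644 to 40847 in WT. GOF replicate 3 was thus within the WT range for this list, in which up read 2228 and bt 141 on that array, so Mlc2 made up most of the sum. It was outside the WT range for the sums of the maternal, cuticle, epidermal, amnioserosa and neuronal lists. In LOF, 1 epidermal gene fell (en, log2 change -0.52), 1 neuronal gene rose (brp, 0.44, on 1 of its 3 sets) and 0 of the cuticle and muscle genes passed. The part of these shifts in the changes of the pathway genes was not tested. In whole embryos, fewer cells of a type and less RNA per cell cannot be told apart. Whether the groups differed in stage was not tested, and such a difference could not be told apart from genotype here.

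The other genes of BMP and Activin signalling were described by role, from lists of known pathway genes. Of 4 measured ligand genes outside the members, 1 rose in GOF and 0 fell, where 16.6% of all genes were called up and 20.1% down. This was myo, the gene for the Activin-type ligand Myoglianin, at 2353, 2412 and 2226 in WT, 4303, 4309 and 5106 in GOF and 2263, 2025 and 1779 in LOF (log2 change in GOF 0.97, SE 0.11, adjusted p = 3.1e-05). mav, the gene for the related ligand Maverick, lay above WT on all GOF and LOF arrays without passing (log2 changes 0.47, adjusted p = 0.101, and 0.74, adjusted p = 0.064). Both other receptor genes were lower on all GOF arrays than in WT. Only babo, the type I receptor gene of Activin signalling, passed (1088 ± 75.3 to 656 ± 122, mean ± SD, n = 3; log2 change -0.74, limma adjusted p = 0.00108), while wit did not (log2 change -0.24, adjusted p = 0.089).

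Secreted modulators of BMP ligands fell in 3 of 10 cases in GOF and rose in 0, where 20.1% of all genes were called down. Their median log2 change was -0.17. The 3 were magu, also called pentagone, which shapes the Dpp gradient of the wing (449 ± 33.9 to 295 ± 47.3, log2 change -0.61, limma adjusted p = 0.0021, n = 3), cv, a Tsg-family gene of BMP transport (1665 ± 280 to 1098 ± 110, -0.59, adjusted p = 0.00478), and cv-d, a lipoprotein gene (-0.49, adjusted p = 0.00406). For cv-d the brightest of 3 sets passed, and the other sets did not (-0.17 and -0.12 on the log2 scale, with 0.513 and 0.541 as limma adjusted p over probe sets). These counts use the brightest set of each gene. The dimmer set of Fs, the Follistatin gene, rose (0.45, limma adjusted p over probe sets 0.00684) and that of dlp, a glypican gene, fell (-0.44, 0.0172), while their brighter sets did not pass. tld and tok, which encode the proteases that release Dpp from its inhibitor Sog, had log2 changes of -0.21 and -0.43 (adjusted p = 0.25 and 0.0658). In LOF 0 of these 10 genes passed, where 4.72% of all genes were called.

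Intracellular regulators rose in 4 of 7 cases in GOF and fell in 0, with a median of 0.57, where 16.6% of all genes were called up. Smurf, the gene for a ubiquitin ligase that targets Mad, rose from 3411 ± 392 to 6064 ± 1279 (mean ± SD, n = 3; log2 change 0.82, limma adjusted p = 0.000647), and nej, the gene for the coactivator CBP, from 6689 ± 499 to 15072 ± 3840 (1.14, adjusted p = 0.000145). The dimmer set of nej did not pass (0.24, limma adjusted p over probe sets 0.275). The corepressor gene sbb rose on both of its sets, by 0.57 and by 2.06 on the log2 scale (adjusted p over probe sets 0.0197 and 3.08e-06). gro, the gene for the corepressor that Brk can recruit, had sets that moved in opposite directions. Its brighter set, which carries the suffix _s that Affymetrix gives to sets able to match more than 1 transcript, read 8438, 7704 and 7188 in WT and 24289, 26375 and 24648 in GOF (1.69, adjusted p = 1.17e-07). The other set of gro fell from 6727 ± 1324 to 4271 ± 59.5 (log2 change -0.64, adjusted p over probe sets 0.00263). As for tkv, the direction for gro depends on the probe set.

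Genes reported as Dpp targets in the embryo or in discs were lower in GOF. Of 17 measured, 12 fell, 0 rose and 5 did not pass, with a median log2 change of -0.47, where 20.1% of all genes were called down. Dad, which the pathway also induces, was counted among the members and not in this list, and it rose (0.32, limma adjusted p = 0.0385). Ance, a peptidase gene of the amnioserosa, fell from 39337 ± 5360 to 18431 ± 1032 (-1.09, limma adjusted p = 2.43e-05, n = 3), and Kr, a zinc finger gene also active there, from 1207 ± 108 to 581 ± 67.5 (-1.06, adjusted p = 3.81e-05). The transcription factor genes eya (-0.87), Doc1 (-0.58) and pnr (-0.46), the last encoding a GATA factor of the dorsal epidermis, fell as well. Of the 17, 9 are also in the amnioserosa list, and 6 of these 9 fell, as did 6 of the 8 that are not. The brighter set of tup, a LIM homeobox gene, did not pass in GOF or LOF, but its other set, named here after its values were seen, fell in both (-0.61 and -0.48 on the log2 scale, with 0.00107 and 0.0341 as limma adjusted p over probe sets).

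In LOF, 2 of the 17 reported targets fell and 0 rose, where 365 of all 10844 genes were called down and 147 up. They were Ance (21580 ± 2570, log2 change -0.86, limma adjusted p = 0.0029, n = 3) and pnr, which read 413, 378 and 418 in WT, 322, 252 and 269 in LOF and 285, 273 and 324 in GOF (LOF change -0.53, adjusted p = 0.0224). Both were thus below WT in each JNK genotype, and these comparisons share the WT arrays. peb, also called hindsight, a zinc finger gene needed in the amnioserosa, moved apart between the genotypes. It read 1553, 1483 and 3430 in WT, 713, 805 and 1689 in GOF and 4185, 4405 and 4088 in LOF. It fell in GOF (log2 change -1.01, adjusted p = 0.0341) and stood above WT on all LOF arrays without passing (1.08, adjusted p = 0.0949), and GOF and LOF themselves differed (log2 change -2.09, adjusted p = 0.000397).

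**Figure D4:**
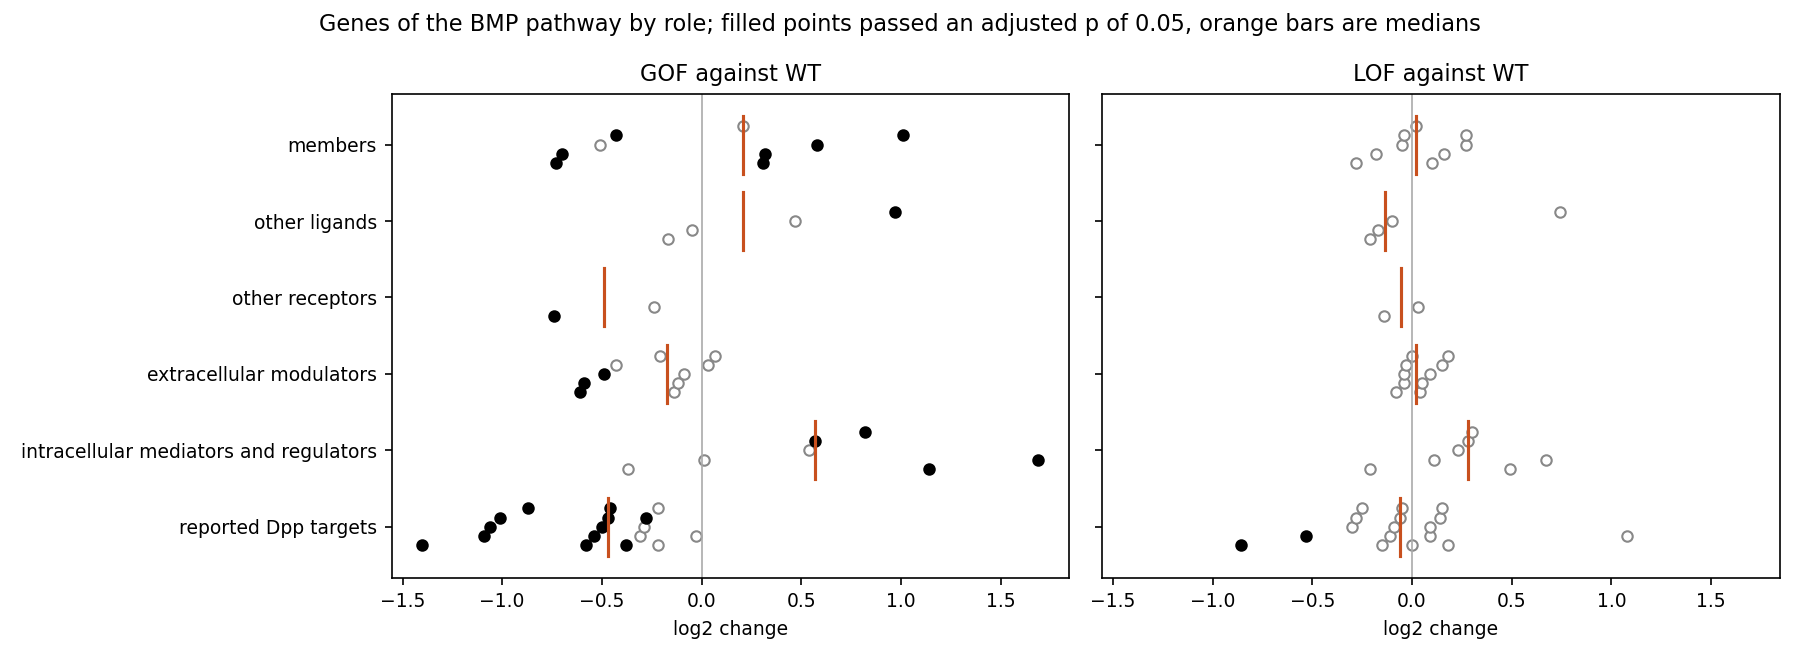
Log2 changes of single genes (points, filled where the adjusted p was under 0.05) by role in the pathway, in GOF and in LOF against WT, with the median of each list as an orange bar. In GOF the median of the reported targets lies at -0.47 and that of the intracellular regulators at 0.57, while in LOF only Ance and pnr among the targets passed.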

How the data were processed

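Per the submitters' processing notes the authors used RMA. The deposited table held linear intensities, in whole numbers from 29 to 1331513. On at least 1 array, 239 probe sets exceeded 65535, the largest number that 16 bits can hold. For RMA's version, its settings and the base of the step back from the log scale, nothing is given in the sources used here. This method gives all arrays a like distribution (medians from 688 to 709), so a change shared by most genes would be removed. Of 14010 probe sets, 12443 had 1 gene in the platform annotation, 327 had several, 44 were controls and the annotation names no gene for 1196. Symbols were matched by gene number to the RefSeq gene table, and 45 without a match were kept. For 1209 genes with several sets, the set with the highest mean over 9 arrays stood for the gene. Since the build behind the annotation is not given, no positions are printed.

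Means of the 3 groups were fitted to log2(intensity + 1) of all 9 arrays with lmFit and eBayes of limma 3.58.1 in R 4.3.3. The tests were two-sided, on 6 residual plus 5.39 prior degrees of freedom, with no filter on low values. P-values were adjusted over 10844 genes or, where said, 14010 probe sets. The step was tested on simulated data. Signals of different probe sets were not compared for their level. For the marker lists they were summed, so that the brightest sets weigh most, and the tkv sets were compared by their changes. The 3 arrays per group limit the precision.

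Members and lists were chosen with earlier results of these data known. Named were all members, the JNK context genes and, of each other list, the up to 4 genes with the smallest p in GOF and in LOF, plus the 5 genes most like dpp. Examples from these are printed. bcd, vas, pgc, gcl, CycB, bnk, tup and the second sets of Fs, dlp, nej, tup, hep and kay were named after their values were seen. Alternatives covered the pseudocount, normalization, dim genes, samples in the fit, probe set choice, log base, replicate block and each array in turn.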

Additional observations from a re-analysis of the deposited data

How the results depend on the processing

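Over 30 log2 changes (10 member probe sets in 3 comparisons) and 507 alternative values, 470 kept direction and side of the threshold, or were not past it in either setting, 27 lost the call, 8 gained it and 2 reversed. Both reversals were those of tkv when its sets were averaged: 1.43 for GOF against WT and 1.17 for GOF against LOF, in place of -0.51 and -0.78. The calls of gbb, Mad, Med and the dimmer tkv set in GOF were kept in all alternatives run. Those of dpp, put, Dad and shn were lost in 3, 2, 8 and 10. Without single arrays, members up in GOF numbered 1 to 4 and member sets 2 to 5, with 2 to 4 sets down. Members higher in GOF than in LOF numbered 1 to 3. Genes called over the whole table in LOF ranged from 41 to 240 up and from 97 to 476 down, and members called in LOF stayed at 0 in every setting run. With only GOF and WT arrays in the fit, 2 member sets rose in place of 5. The cause was not tested. Cyclic loess gave 5 members up and 2 down in GOF, in place of 4 and 3, and over all genes 2158 up and 1510 down in GOF against LOF, in place of 1922 and 2101.

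With the replicate number of the labels as a block, 4 members rose and 3 fell in GOF, and 2 rose and 4 fell in GOF against LOF (shn added, adjusted p = 0.0394). Deviations of same-numbered arrays from their group means correlated between -0.18 and 0.187, with 3 of 9 pairs over 0.1, so the numbers were not taken to pair the samples. No detection calls came with the intensities, so how far dim sets stand above background is not known here.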
